A study of Homo sapiens with 6 samples.

Results

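The Krüppel-like factor (KLF) genes encode transcription factors that share a carboxy-terminal domain of zinc fingers and bind GC-rich and CACCC sequences. The genes described here are KLF2, KLF3, KLF4, KLF5, KLF6, KLF7, KLF9, KLF10, KLF11 and KLF13, found by symbol in the authors' deposited table of changed genes, where 9 of the 10 stood among 7150 genes in all. RNA was sequenced from 3 libraries of MDA-MB-231 cells given 0.5 µM shikonin for 24 h and 3 libraries of untreated MDA-MB-231 cells, the controls. Shikonin is a naphthoquinone made by plants of the borage family, and MDA-MB-231 is a human triple-negative breast cancer line labelled as wild type. The labels give the unit of the dose with a lower-case m, taken here to mean micromolar. The sources used here name no vehicle for the controls. The table holds 1 comparison and 0 columns of per-sample values, and neither the depth nor the spread of single libraries is known. Whether the libraries of a group are separate cultures is not said in the labels, so p-values rest on a spread between samples that may be technical.

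KLF proteins use their amino-terminal part to recruit partners, and on that ground fall into groups. KLF3, KLF8 and KLF12 bind the corepressor CtBP and mostly repress. KLF2, KLF4, KLF5, KLF6 and KLF7 act largely as activators and draw in acetyltransferases. KLF9, KLF10, KLF11 and KLF13 bind the SIN3 corepressor. In breast epithelium KLF5 is known for promoting proliferation in basal-type tumours, KLF4 and KLF6 for restraining or promoting growth by context, and KLF10, first found as a TGF-beta-inducible early gene, for relaying TGF-beta signals. Several KLF genes are immediate or delayed early genes whose messages turn over fast.

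The members are shown first by the stretch that makes them a family. Each line gives the coding DNA of the last zinc finger from the GENCODE 29 principal transcript, with the codons of the zinc-holding cysteines and histidines in capitals. It is shown so that the likeness of members can be set beside the direction in which each moved. The stretch of KLF10 is not shown.
KLF5, higher: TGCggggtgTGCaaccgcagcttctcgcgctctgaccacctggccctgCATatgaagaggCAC
KLF4, higher: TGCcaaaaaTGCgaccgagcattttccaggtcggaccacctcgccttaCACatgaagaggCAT
KLF2, higher: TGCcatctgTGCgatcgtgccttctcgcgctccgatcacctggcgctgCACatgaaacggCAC
KLF11, higher: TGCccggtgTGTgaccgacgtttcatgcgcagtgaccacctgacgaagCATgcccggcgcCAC
KLF3, lower: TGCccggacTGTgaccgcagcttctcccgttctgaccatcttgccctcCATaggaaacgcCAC
KLF6, lower: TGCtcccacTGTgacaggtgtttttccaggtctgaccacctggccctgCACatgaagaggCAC
KLF7, lower: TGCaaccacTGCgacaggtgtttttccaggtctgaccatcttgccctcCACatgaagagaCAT
KLF13, lower: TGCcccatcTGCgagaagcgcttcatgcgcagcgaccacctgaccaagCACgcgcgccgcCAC
KLF9, not listed: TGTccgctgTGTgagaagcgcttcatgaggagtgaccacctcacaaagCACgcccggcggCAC
These stretches of 63 nt were 46.0% to 87.3% identical over the 45 pairs of the 10 members, with a median of 61.9%. KLF6 and KLF7, both lower in shikonin, formed the most alike pair at 87.3%, followed by KLF10 and KLF11, both higher, at 84.1%. KLF11 and KLF13 were 77.8% identical and had fold changes of opposite sign. KLF10 and KLF13, KLF4 and KLF7, and KLF3 and KLF5 also differed in sign, at 76.2% each. KLF2 and KLF5, also at 76.2%, were both higher. In the full principal transcripts, the longest run of bases shared exactly by any pair was 26 nt, in KLF6 and KLF7, and the median over the pairs was 14 nt. None of the 10 KLF processed pseudogenes in GENCODE 29 stood in the table.

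The family did not move as a block. KLF10, KLF5, KLF4, KLF2 and KLF11 rose in shikonin-treated cells, by 1.51-fold to 3.00-fold, and KLF13, KLF7, KLF6 and KLF3 fell, by 1.57-fold to 4.65-fold, in the authors' deposited table (DESeq2 adjusted p below 0.05 and a fold above 1.5). The split was therefore 5 higher and 4 lower of 10 members. In bulk RNA of a culture, fewer cells that express a gene and less of its RNA per cell cannot be told apart. Over all of about 14254 genes tested, 50.2% were listed, 25.5% as higher and 24.7% as lower. In the authors' deposited table the 9 listed members had a median of 0.60 on the log2 scale, as did all listed genes, but with no listed gene within 1.5-fold a list that is nearly evenly split has its median at the edge of that gap. KLF9, which glucocorticoids induce in many cells, was not listed, so it was either not past the authors' thresholds or not tested.

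Among the 9 listed members, KLF10, KLF5 and KLF4 rose by 2-fold or more in the authors' deposited table, and KLF13 and KLF7 fell by as much. Of all 7150 listed genes, 2341 rose and 2087 fell by 2-fold or more. Those are 16.4% and 14.6% of the genes tested, a base that takes in unlisted genes, unlike the 9. With 9 genes these counts do not set the members apart from the other listed genes. KLF2, KLF11, KLF6 and KLF3 lay between 1.5-fold and 2-fold. Implied totals could be summed only over the 7150 listed genes, not over whole libraries. Making these totals equal in both groups lowers every log2 fold change by 0.39. The split then became 3 higher and 4 lower, because KLF2 and KLF11 no longer passed the fold threshold. That shift is smaller than the smallest fold change the table holds, so it could turn no sign.

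**Figure D1:**
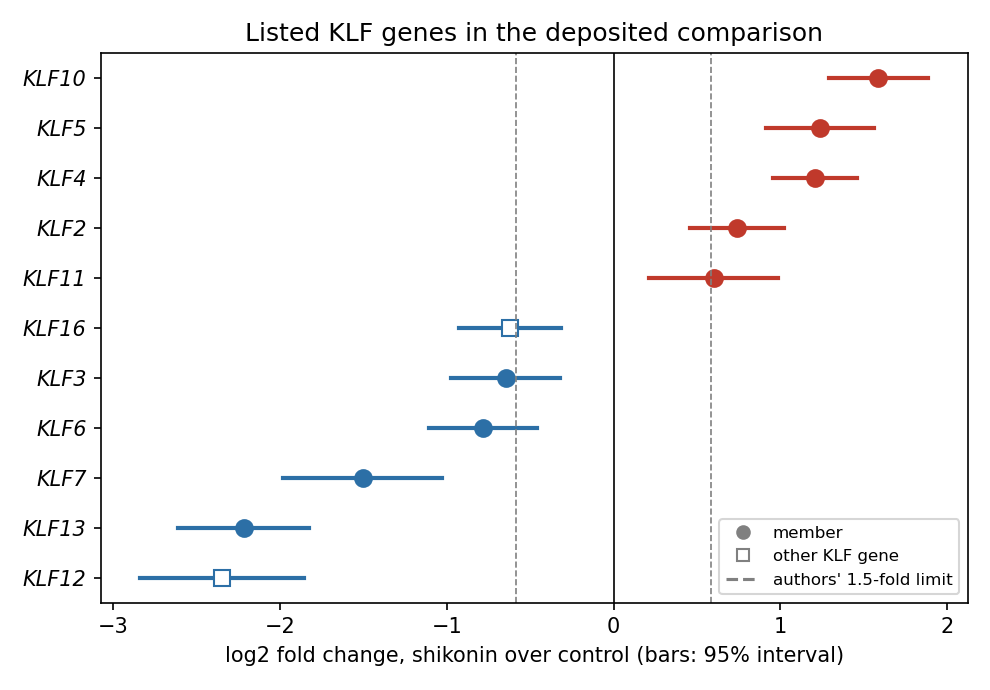
Log2 fold change of each listed KLF gene, shikonin over control, with its 95% interval as a bar; positive values (red) are higher in shikonin and negative ones (blue) lower, filled circles are the 9 members and open squares KLF12 and KLF16. KLF10 at 1.59 and KLF13 at -2.22 are the extremes among the members, and the intervals of KLF2, KLF11, KLF6 and KLF3 cross the authors' 1.5-fold limit (dashed).

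Among the activator group, KLF4 and KLF5 gave similar increases. KLF4, which regulates epithelial differentiation and is a factor used in reprogramming to pluripotency, had a log2 fold change of 1.21 ± 0.13 (standard error; adjusted p = 9.52e-20) in the authors' deposited table. This is 2.31-fold (95% interval 1.94 to 2.75). Group means implied by the listed overall mean and fold, with the 3 and 3 libraries given equal weight, were 2598 normalized counts in shikonin and 1126 in control. KLF4 lies on chromosome 9 from 107484852 to 107490482 (GRCh38, GENCODE 29).

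For KLF5, a growth-promoting factor of epithelia, the authors' deposited table gave 1.24 ± 0.16, or 2.36-fold (interval 1.89 to 2.95; adjusted p = 4.10e-13). Its implied means were 1561 normalized counts in shikonin and 662 in control. The gene lies on chromosome 13 (73054976 to 73077542), on the same arm as KLF12 (73686089 to 73995056), a CtBP-binding KLF gene outside the 10. KLF12 was 5.08-fold lower (interval 3.62 to 7.14) in the authors' deposited table, so these KLF genes of 1 chromosome arm moved in opposite directions.

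KLF2, a factor known for quiescence of endothelial and T cells, rose less. Its log2 fold change was 0.74 ± 0.14 in the authors' deposited table, or 1.67-fold (interval 1.37 to 2.03; adjusted p = 8.66e-07). The implied means were 1469 normalized counts in shikonin and 879 in control. KLF2 is the most compact member, with 3 exons in 3058 bases of chromosome 19 (16324817 to 16327874).

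KLF6 and KLF7, the remaining pair of activators, fell. KLF6, a broadly expressed factor often described as a tumour suppressor, was 1.72-fold lower (interval 1.37 to 2.15; adjusted p = 7.17e-06, DESeq2) in the authors' deposited table. Its implied means were 2641 normalized counts in shikonin and 4543 in control. KLF6 lies on chromosome 10 (3775996 to 3785281).

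The fall of KLF7, which is best known from the development of neurons, was 2.83-fold (interval 2.04 to 3.94; adjusted p = 2.93e-09, DESeq2) in the authors' deposited table. It was the rarest listed member, with implied means of 93.5 normalized counts in shikonin and 265 in control. The gene spans 93131 bases of chromosome 2 (207074137 to 207167267). With KLF6 it shares direction and the closest zinc finger, but their intervals of the fold overlapped only between 2.04-fold and 2.15-fold, and the difference between them was not tested.

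KLF13 and KLF10, both SIN3-binding, were the members with the largest changes and moved in opposite directions. KLF10 had the highest fold of the members, 3.00-fold (interval 2.44 to 3.69; log2 fold change 1.59 ± 0.15, adjusted p = 5.10e-24) in the authors' deposited table. It also had the highest implied mean in shikonin, 7526 normalized counts, against 2506 in control. KLF10 took rank 500 of the 7150 listed genes by p-value, and its gene lies on chromosome 8 (102648779 to 102655902).

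KLF13, first described as a late activator of the chemokine gene CCL5 in T cells, was 4.65-fold lower (interval 3.54 to 6.11; log2 fold change -2.22 ± 0.20, adjusted p = 9.95e-27) in the authors' deposited table. Its implied means were 323 normalized counts in shikonin and 1501 in control. By p-value it ranked 383 of the listed genes, ahead of every other member. KLF13 spans 108811 bases of chromosome 15 (31326855 to 31435665) but has only 2 exons in its principal transcript.

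KLF11, a close relative of KLF10 that TGF-beta also induces, gave the smallest listed change. The authors' deposited table had it 1.51-fold higher (interval 1.16 to 1.98; log2 fold change 0.60 ± 0.20, adjusted p = 0.00517). Its implied means were 604 normalized counts in shikonin and 399 in control. The interval of KLF10 (log2 1.29 to 1.88) lay wholly above that of KLF11 (0.21 to 0.99), so the pair shared direction but not size. KLF11 lies on chromosome 2 (10042849 to 10054836), where an antisense gene overlaps it.

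KLF3, the CtBP-binding member and a repressor in blood and fat cells, was 1.57-fold lower (interval 1.25 to 1.96; adjusted p = 2.56e-04, DESeq2) in the authors' deposited table. Its implied means were 426 normalized counts in shikonin and 667 in control. It lies on chromosome 4 (38664196 to 38701042), overlapped by the antisense gene KLF3-AS1. Neither antisense gene was listed, and since the sources used here do not say whether strand was kept, reads of KLF3 and KLF11 cannot be told apart from antisense reads.

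Grouped by partner, 0 of 2 listed CtBP-binding KLF genes were higher, 3 of 5 of the activator group and 2 of 4 of the SIN3-binding group. The last count includes KLF16, a SIN3-binding gene outside the 10, which was 1.54-fold lower (interval 1.24 to 1.90) in the authors' deposited table. KLF1, KLF8, KLF14, KLF15, KLF17 and KLF18 were not listed. Both directions thus occurred within the activator and the SIN3-binding group. Of all listed genes 50.8% were higher, and with 2 to 5 listed genes in a group these counts do not set the groups apart.

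Compared per length, the order of the members differed between the groups. In shikonin, KLF10 led with 2430 implied normalized counts per kb of principal transcript, followed by KLF4 (924), KLF2 (728), KLF6 (567), KLF5 (438), KLF11 (150), KLF3 (83.1), KLF13 (47.3) and KLF7 (11.2). In control, KLF6 led with 976 per kb, followed by KLF10 (809), KLF2 (436), KLF4 (400), KLF13 (220), KLF5 (186), KLF3 (130), KLF11 (99.0) and KLF7 (31.7). KLF10 held 43.7% of the 9 members' summed implied counts in shikonin and 20.0% in control, and KLF6 held 15.3% in shikonin and 36.2% in control. The sums were 17242 normalized counts in shikonin and 12548 in control, a ratio of 1.37. Over all 7150 listed genes the implied total was also higher in shikonin, by 0.39 on the log2 scale. A higher sum is thus not particular to the members. KLF13, which stood above KLF5, KLF3 and KLF11 in control, stood below all of them in shikonin. Without per-sample values, which neighbours in either order differ beyond their spread cannot be told.

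**Figure D2:**
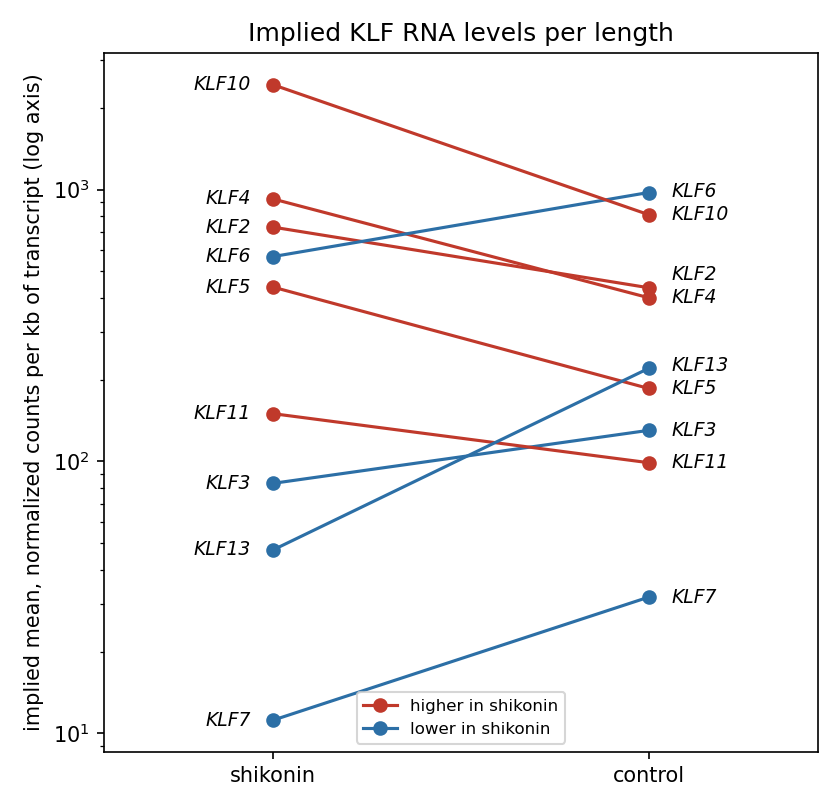
Implied mean level of the 9 listed members, in normalized counts per kb of principal transcript on a log axis, in shikonin (left) and control (right); each line is 1 gene, red where it is higher in shikonin and blue where it is lower. KLF10 is at the top in shikonin at 2430, KLF6 in control at 976, and KLF13 stands at 47.3 in shikonin against 220 in control.

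The members' direction went with the length of their transcripts. The 5 that rose have principal transcripts of 2018 to 4030 nt and the 4 that fell of 4656 to 8362 nt, so the groups do not overlap. KLF2 is the shortest at 2018 nt, then KLF4 at 2813, KLF10 at 3097, KLF5 at 3566, KLF11 at 4030, KLF6 at 4656, KLF3 at 5122, KLF13 at 6825 and KLF7 at 8362. Spearman's rho between length and log2 fold change was -0.82 over these 9 genes, which share the same libraries and scaling. KLF12, at 10637 nt, was lower as well, while KLF16, at 2890 nt, was lower although short. The transcript each gene uses in these cells was not measured.

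**Figure D3:**
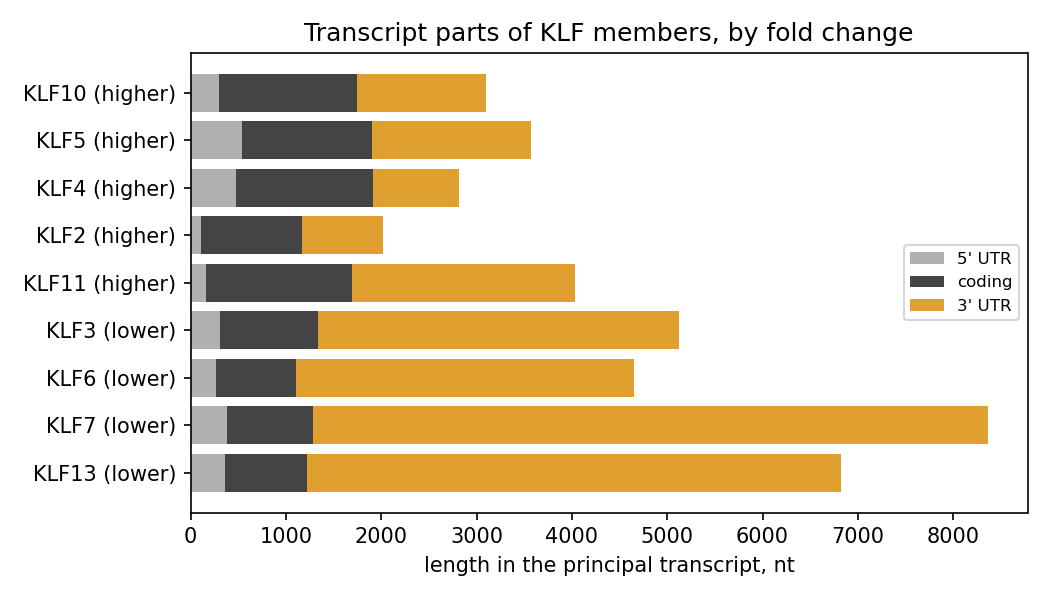
Length in nt of the 5′ untranslated, coding and 3′ untranslated part of each listed member's principal transcript, ordered from the highest fold change at the top to the lowest at the bottom. The 3′ untranslated part is 846 to 2332 nt in the 5 members higher in shikonin and 3546 to 7079 nt in the 4 that are lower.

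Most of the length difference lay in the 3′ untranslated region. It takes 32.1% to 57.9% of the transcript in the members that rose and 73.8% to 84.7% in those that fell. The coding part ran the other way, at 1065 to 1536 nt in the members that rose and 849 to 1035 nt in those that fell. For the AU-rich heptamer TATTTAT, which can shorten the life of a message, the counts did not separate the directions. KLF2, KLF5 and KLF11 among the members that rose and KLF6 and KLF7 among those that fell each held 1, and the others held 0. Among listed genes with a 3′ untranslated region of 80% to 125% of their length, the share with at least 1 ran from 23.1% for KLF2 to 77.2% for KLF7.

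The same relation to length held over the whole table. Across 6920 listed protein-coding genes, which are not independent replicates, rho for the same pair of measures was -0.70. Between 2018 and 4030 nt, the range of the members that rose, 60.2% of listed genes were higher, and between 4656 and 8362 nt, the range of those that fell, 10.2% were. Set against listed genes in its own length decile, KLF5 stood at percentile 85.3 of fold change, KLF3 at 83.5, KLF10 at 81.5, KLF4 at 71.0 and KLF11 at 68.9. KLF6 stood at 59.0, KLF7 at 53.5, KLF2 at 34.1 and KLF13 at 3.90. KLF13 was thus low even among long transcripts, and KLF6 and KLF7 were near the middle of theirs. KLF2 had a smaller fold than the median gene of its length, 0.74 against 0.93 on the log2 scale. With no listed gene within 1.5-fold, a percentile partly restates direction. In decile 6, which holds KLF5 and KLF11, 31.9% of genes were higher, and in decile 8, which holds KLF3, 11.7%. The percentile of KLF11 is near the lowest that a higher gene of its decile can have. What part length has in the members' fold changes was not tested.

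**Figure D4:**
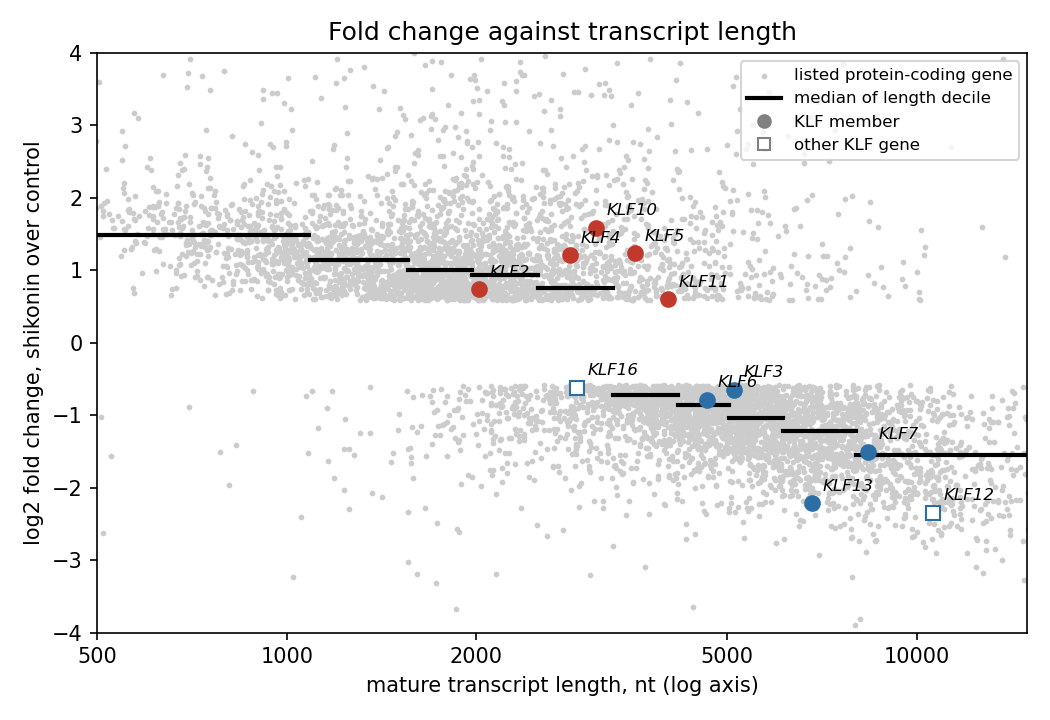
Log2 fold change, shikonin over control, against mature transcript length in nt (log axis) for listed protein-coding genes (grey), with the median of each length decile as a black line and the KLF genes marked as red (higher) or blue (lower); 273 of 6920 genes lie outside the axes. The gap around 0 is left by the authors' 1.5-fold threshold. KLF2, KLF12, KLF13 and KLF16 lie below the median of their deciles. KLF3, KLF4, KLF5, KLF10 and KLF11 lie above theirs, and KLF6 and KLF7 lie close to theirs. For KLF5 and KLF11 that median is -0.72, so any higher gene of their decile lies above it.

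Promoter sequence was searched for 8 of the 10 members, in 13 windows of 250 bases before a RefSeq start (GRCh38.p14). KLF3 and KLF10 are not among the 8. GGGCGG, the GC box bound by SP and KLF proteins, was present on either strand in 8 of the 13 windows, from 7 of the 8 genes, and in 42.6% of all 35116 windows. CACCC was present in 6 of the 13, from 4 of the 8 genes, and in 54.7% of all windows. The heat shock element, searched as GAA, TTC and GAA spaced by 2 bases, and the antioxidant element, searched as TGAC and GCA spaced by 3 bases, were found in 0 of the 13 windows and in 0.441% and 2.59% of all. Motifs could overlap each other.
The MEF2 motif was found in KLF2 alone of the 8 genes and in 2.80% of all windows. The cyclic AMP response element TGACGTCA was found in KLF11 alone and in 1.65% of all windows. It was in 1 window of KLF11 and not in the other, and the window with the match lies inside the gene as placed above. An SRF CArG box was found in 1 of 4 windows of KLF7 and in no window of the other 7 genes, against 1.16% of all windows. These 3 matches were the rarest found and are shown for that reason. Each is in capitals and lies, counted back from the RefSeq start, at -120 to -111 in KLF2, at -176 to -169 in KLF11 and at -62 to -53 in KLF7.
KLF2, chr19:16324576-16324775, plus strand: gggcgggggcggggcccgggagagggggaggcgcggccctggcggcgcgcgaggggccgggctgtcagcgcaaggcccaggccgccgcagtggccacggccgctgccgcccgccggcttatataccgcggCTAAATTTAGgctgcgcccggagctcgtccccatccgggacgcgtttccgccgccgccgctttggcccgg
KLF11, chr2:10043971-10044170, plus strand: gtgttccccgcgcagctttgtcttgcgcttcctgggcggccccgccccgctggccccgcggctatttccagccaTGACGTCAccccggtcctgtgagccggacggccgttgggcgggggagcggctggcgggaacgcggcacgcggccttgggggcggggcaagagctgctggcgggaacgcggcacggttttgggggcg
KLF7, chr2:207167297-207167496, minus strand: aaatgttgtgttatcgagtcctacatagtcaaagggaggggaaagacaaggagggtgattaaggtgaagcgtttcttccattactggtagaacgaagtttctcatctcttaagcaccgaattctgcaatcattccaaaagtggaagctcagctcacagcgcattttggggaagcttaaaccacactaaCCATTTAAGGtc
KLF2 and KLF11 rose and KLF7 fell, and with 1 match of each motif nothing can be read from that. A match is a run of letters, and binding was not measured.

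Genes known to act on KLF2 and KLF4 were lower where listed. The kinases MEK5 and ERK5 and their MEF2 factors induce both genes in endothelium, and the CCM proteins with HEG1 hold that route down. The list of 13 genes takes in both the inducing and the restraining arm, and FOXO1, which is in neither. Of the 13, 7 were listed, 0 higher and 7 lower, with FOXO1 at 1.90-fold lower (interval 1.39 to 2.58). The share listed, 53.8%, was near the 50.2% of all genes tested, while the share lower, also 53.8%, stood against 24.7%. These shares are of all genes in a list, and how many of them the authors tested is not known. HEG1, which encodes a transmembrane anchor of the CCM complex, was 4.78-fold lower (interval 3.80 to 6.03) and MAPK7, which encodes ERK5, 1.70-fold lower (interval 1.36 to 2.14) in the authors' deposited table. By the authors' deposited table, MAP3K2 and MAP3K3, whose kinases activate MEK5, were lower by 4.45-fold (interval 3.51 to 5.63) and 2.19-fold (interval 1.81 to 2.65). KLF2 and KLF4 themselves rose.

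Upstream of KLF10 and KLF11, listed genes were again mostly lower. The list of 11 genes holds TGF-beta ligands, receptors, SMAD genes and the ubiquitin ligase genes SMURF1 and SMURF2. Of the 11, 6 were listed, or 54.5%, of which 1 was higher and 5 (45.5% of the list) lower. Over all genes tested, 50.2% were listed and 24.7% were lower. SMURF2, which also stands in the ubiquitin ligase list below, is 1 of the 5, at 2.34-fold lower (interval 1.91 to 2.86). SMAD3, a signal transducer, was 3.52-fold lower (interval 2.97 to 4.17) and the receptor gene TGFBR1 3.25-fold lower (interval 2.71 to 3.89) in the authors' deposited table. SMAD7, an inhibitor of the pathway that KLF10 is known to repress, was 2.40-fold higher (interval 1.82 to 3.16) in the authors' deposited table.

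Around KLF9, which was not listed, 5 of 7 genes (71.4%) of the glucocorticoid receptor and its targets were listed, 3 higher and 2 lower. Those higher make 42.9% of that list and those lower 28.6%, against 25.5% and 24.7% of the genes tested. TSC22D3, which encodes the glucocorticoid-induced leucine zipper, was 5.29-fold higher (interval 4.12 to 6.78), and NR3C1, the receptor gene, 2.14-fold lower (interval 1.73 to 2.64) in the authors' deposited table. FKBP5, another target, was 1.90-fold lower (interval 1.52 to 2.39) in the authors' deposited table. SGK1 and DUSP1, also targets, were each 2.97-fold higher there (intervals 2.47 to 3.57 and 2.36 to 3.74).

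Of the genes of KLF partner proteins that were listed, most were lower. Over all genes tested, 50.2% were listed and 24.7% were lower. Among corepressors 7 of 17 (41.2%) were listed, 1 higher and 6 lower, so that lower genes make 35.3% of that list. SIN3A, which encodes the scaffold bound by KLF10, KLF11 and KLF13, was 2.78-fold lower (interval 2.01 to 3.84), and SAP30, a smaller subunit of that complex, 1.98-fold higher (interval 1.55 to 2.54) in the authors' deposited table. CTBP1 and CTBP2 were not listed. Of 6 acetyltransferase genes 5 were listed, all lower (83.3% of that list), EP300 by 4.43-fold (interval 2.31 to 8.51) and CREBBP by 3.73-fold (interval 2.77 to 5.01) in the authors' deposited table. Among 15 genes for ubiquitin ligases and related proteins that act on KLF proteins, 11 (73.3%) were listed, 2 higher and 9 (60% of that list) lower. VHL was the lowest of them, by 2.50-fold (interval 2.03 to 3.07) in the authors' deposited table.

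SP genes, whose proteins carry the same kind of zinc fingers and bind the same GC boxes, were 1 higher and 3 lower of 9. Those listed make 44.4% of the 9, against 50.2% of the genes tested, and those lower 33.3%, against 24.7%. SP1, SP3 and SP4 were 2.23-fold (interval 1.73 to 2.87), 2.11-fold (interval 1.67 to 2.67) and 2.53-fold (interval 1.67 to 3.83) lower, and SP6, an epithelial member, 1.83-fold higher (interval 1.31 to 2.55), in the authors' deposited table.

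Of 41 genes reported elsewhere as targets of KLF proteins 15 were listed, or 36.6%, which is below the 50.2% of all genes tested. The 12 that were higher make 29.3% of the list, near the 25.5% of genes tested, and the 3 that were lower make 7.32%, against 24.7%. ATF3, a stress-response factor and reported KLF6 target, was 15.1-fold higher (interval 11.7 to 19.7), and CDKN1C, a cell cycle inhibitor gene, 6.87-fold higher (interval 5.14 to 9.17) in the authors' deposited table. CCND1, the cyclin D1 gene, was 2.23-fold lower (interval 1.88 to 2.65) and ITGA2, an integrin gene, 6.50-fold lower (interval 5.23 to 8.08) in the authors' deposited table. KRT4, a keratin gene, had implied means of 62.9 normalized counts in shikonin and 0.161 in control, so its fold rests on a control level near 0. The 41 genes were not chosen for a direction of regulation, and several answer to many other factors. SMAD7 and TGFBR1 stand both here and in the TGF-beta list, so the 2 lists are not separate observations.

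The lists differed in transcript length. The median principal transcript was 2401 nt for the listed genes of the glucocorticoid receptor list, of which 3 of 5 were higher, and 2630 nt for the listed targets, of which 12 of 15 were. It was 3743 nt for the ubiquitin ligase list, 4987 nt for the SP genes, 5735 nt for the MEK5 to MEF2 list and 5434 nt for the TGF-beta list. For the corepressors it was 5754 nt and for the acetyltransferases 9192 nt, against 3296 nt for all listed protein-coding genes. The part of length in these counts was not tested.

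**Figure D5:**
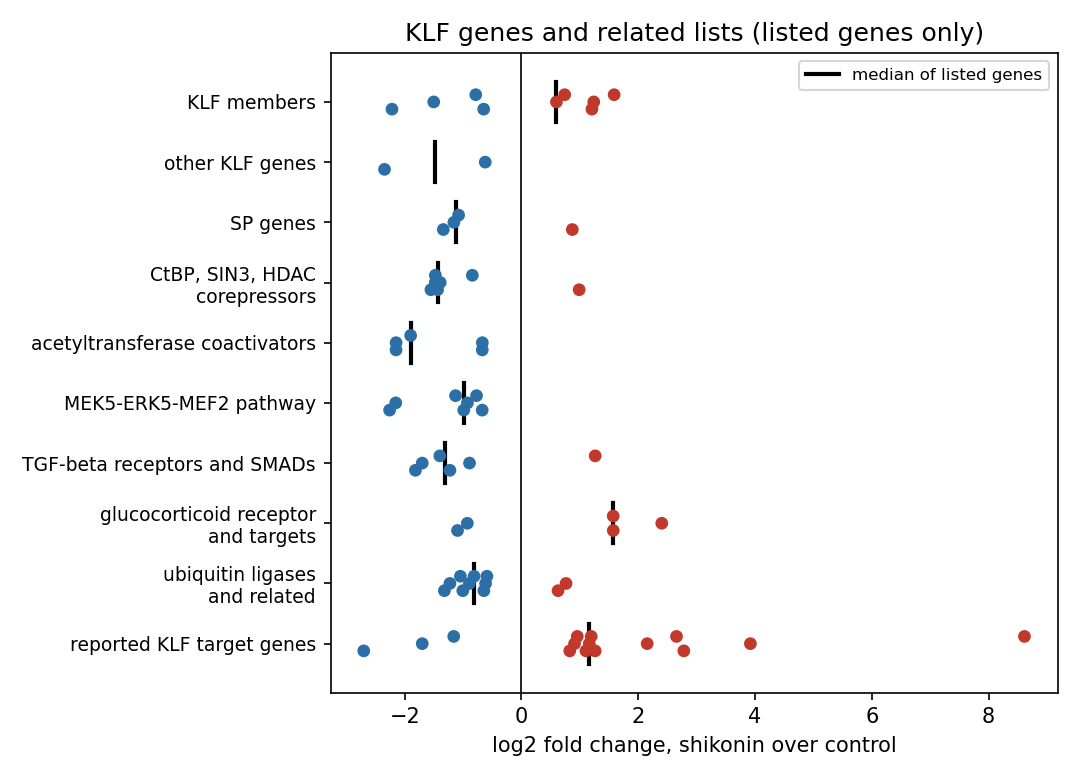
Log2 fold change, shikonin over control, of every listed gene in the KLF members and 9 related lists; each point is 1 gene, red where higher and blue where lower in shikonin, and the black bar is the median of the list's listed genes. The members are split 5 and 4, and the 5 listed acetyltransferases and the 7 listed genes of the MEK5 to MEF2 list are all lower. Of 41 targets 15 are listed and 12 are higher, or 29.3%, near the 25.5% of all genes tested. A gene that stands in several lists is drawn in each.

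The label of the cells could be checked only in part, since unlisted genes have no value here. Of 4 mesenchymal markers, VIM and CAV1 were listed, both as higher. Their implied means were 81887 and 7135 normalized counts in shikonin and 46972 and 4384 in control. Of 8 luminal or epithelial markers 4 were listed. KRT8, KRT18 and EPCAM were higher, with implied means of 22514, 13603 and 174 normalized counts in shikonin and 9454, 4278 and 80.8 in control. ERBB2, which encodes the HER2 receptor, was lower, at 1090 in shikonin and 2174 in control. Of 4 markers of other cells only PECAM1 was listed, with implied means of 284 normalized counts in shikonin and 69.3 in control. The part of these markers in the KLF values was not tested.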

How the data were processed

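The submitters' processing notes name DESeq2, fastp, HISAT2 2.0.5 and, as build, hg38. The read counter, annotation and strand protocol were not given in the sources used here. Per the file headers, the mean normalized count is a signal from the authors, averaged across all 6 libraries with size factors applied. Deposited beside it, per the file headers, are the authors' log2 fold change with its standard error, Wald score, p-value and adjusted p-value. A positive fold change is marked "up" by the authors and taken as higher in shikonin.

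From these, 95% intervals were computed as normal intervals from the standard error, and implied group means followed from mean and fold under equal weight of the 3 and 3 libraries. The number tested, about 14254, was recovered from the adjusted p-values and ranks of the 60 genes with the lowest p. These steps were checked on simulated data. GENCODE 29 gave lengths and positions for 7142 of 7150 genes. The longest APPRIS principal transcript was used, with the longest coding sequence as the alternative. Deciles of length hold only listed protein-coding genes. Promoters came from RefSeq (GRCh38.p14). Members, lists and the named-gene rule (all members; in lists with over 6 listed genes, the 3 highest and the 3 lowest) were chosen with earlier results of these data known. Python 3.11.15 was used. The planned count test, replicate block, left-out replicates and second tool could not be run on a table without per-sample values.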

Additional observations from a re-analysis of the deposited data

How the results depend on the processing

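No paired analysis was possible because the table has no per-sample values, and leaving out replicates, a second tool and another normalization were not run for the same reason. With a minimum mean of 100 normalized counts every member kept its call. Neither a stricter threshold nor the shift to equal implied totals, which is smaller than any listed fold change, could turn a sign. With equal implied totals, summed over listed genes only, KLF2 (log2 fold change 0.35) and KLF11 (0.20) missed the 1.5-fold threshold, leaving 3 members higher. Unlisted genes that would enter as lower are not held. At an adjusted p below 0.001 KLF11 (0.60) was lost, and at 2-fold KLF2 (0.74), KLF3 (-0.65), KLF6 (-0.78) and KLF11 (0.60) were, leaving 3 higher and 2 lower. An alternative chosen after seeing the data subtracted the median of the length decile. It turned the sign of KLF2 (-0.19), KLF3 (0.39), KLF6 (0.070) and KLF7 (0.045). It gave 0.45 for KLF4, 1.96 for KLF5, 0.84 for KLF10, 1.32 for KLF11 and -0.996 for KLF13. Since no listed gene lies within 1.5-fold, that median jumps between 0.75 in decile 5 and -0.72 in decile 6, where KLF5 and KLF11 lie. With the longest coding sequence, length percentiles ran from 3.90 to 84.0, and that of KLF11 was 67.5 against 68.9.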
